A study of Mus musculus and Homo sapiens with 14 samples.

Results

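The constant genes of the immunoglobulin heavy chain were followed through every mouse library of a study of the transcription factor IRF4 in plasma cells. The genes were taken by symbol from the mouse count table: Ighm, Ighd, Ighg3, Ighg1, Ighg2b, Ighg2c and Igha, 7 of the 26221 named genes and 7 of the 260 immunoglobulin genes in it. All 7 were found, and none was chosen by its level. RNA sequencing had been done on 10 mouse libraries in 6 groups, and the cells of every group are labelled C57BL/6. The first pair of groups was splenic plasma cells of genotype Irf4 flox/- (2 libraries) and Irf4 flox/+ (2 libraries). Both came from donor bone marrow of that genotype, placed with uMT marrow into hosts told apart by a congenic marker. All of these hosts received tamoxifen on days 1, 2, 7 and 8 and were harvested on day 14, when donor plasma cells were sorted from the spleen. Every splenic library therefore went through transfer and tamoxifen, and the genotypes differ by name in the second Irf4 allele. The driver of the recombinase and the number and age of the animals are not given in the sources used here. The second pair was a mouse plasmacytoma line labelled MPC-11 carrying Cas9 with a guide RNA against Irf4 (genotype Irf4 -/-, 2 libraries) or with an empty vector (genotype WT, 2 libraries). Both arms of the line received doxycycline and were sorted on day 3. Wild-type bone marrow plasma cells and wild-type splenic follicular B cells gave 1 library each, with no replicate.

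A heavy chain constant gene fixes the class of an antibody. A naive B cell transcribes Ighm and Ighd together from the same rearranged variable region and makes IgM and IgD by alternative RNA processing. Class switch recombination removes the DNA between Ighm and a constant gene further down the locus, after which the cell makes IgG, IgE or IgA. Plasma cells transcribe these genes at very high rates and end most of the transcripts at the secretory poly(A) site, whereas B cells splice on to the membrane exons. The uMT mutation lies in a membrane exon of Ighm and prevents B cell development, so that marrow with it gives no mature B cells.

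In the GENCODE vM21 annotation (GRCm38, the build also called mm10) all 7 genes lie on the minus strand of chromosome 12, in the order of transcription Ighm, Ighd, Ighg3, Ighg1, Ighg2b, Ighg2c and Igha. Ighm (Entrez 16019) spans chr12:113418558-113422730 and Igha (Entrez 238447) spans chr12:113254830-113260236, with their first exons 162 kb apart. Between them lie Ighd (Entrez 380797, chr12:113406604-113416324), Ighg3 (Entrez 380795, chr12:113356224-113361232), Ighg1 (Entrez 16017, chr12:113325240-113330523), Ighg2b (Entrez 16016, chr12:113302965-113307933) and Ighg2c (Entrez 404711, chr12:113285325-113288932). All 7 are annotated as immunoglobulin constant genes. The secreted form has 4 coding exons in 6 of them and 3 in Igha, and the membrane form adds exons to the same gene, so a count per gene does not tell secreted from membrane transcripts.

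The coding starts of the 4 genes that made up most of the counts are shown because the class shares below depend on telling these genes apart. Each is the first 60 bases of the first constant exon, 5′ to 3′ on the minus strand, from the GENCODE vM21 transcripts. Capitals mark the bases at which Ighg2b and Ighg2c differ.
Ighm, chr12:113422671-113422730: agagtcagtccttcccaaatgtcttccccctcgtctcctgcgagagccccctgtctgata
Ighg2b, chr12:113307874-113307933: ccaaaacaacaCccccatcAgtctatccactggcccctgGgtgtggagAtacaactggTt
Ighg2c, chr12:113288873-113288932: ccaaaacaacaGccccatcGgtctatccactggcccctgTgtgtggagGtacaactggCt
Igha, chr12:113260177-113260236: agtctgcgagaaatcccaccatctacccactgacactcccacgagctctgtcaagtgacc
Ighg2b and Ighg2c differed at 5 of these 60 bases and at 36 of the 291 bases of the exon. Over the secreted coding sequence they were 86.4% identical, against 76.2% to 78.7% for the other pairs of IgG genes. Of the 50-base windows of Ighg2b, 56 of 961 (5.83%) also occurred in Ighg2c, and 56 of 958 windows of Ighg2c (5.85%) occurred in Ighg2b. No 50-base window of the other 5 genes was shared with another member. The read length and the handling of reads that match several places are not given in the sources used here, so the split of counts between Ighg2b and Ighg2c is uncertain to that extent.

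The hinge exons are shown because they differ in length and cysteines between the 4 IgG genes, and the cysteines in them join the heavy chains of an antibody. Capitals mark the cysteine codons in the reading frame.
Ighg3, chr12:113360529-113360576: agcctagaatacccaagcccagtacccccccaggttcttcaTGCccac
Ighg1, chr12:113329844-113329882: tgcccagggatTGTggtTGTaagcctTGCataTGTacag
Ighg2b, chr12:113307261-113307326: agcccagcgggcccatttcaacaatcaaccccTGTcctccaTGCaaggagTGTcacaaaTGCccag
Ighg2c, chr12:113288263-113288325: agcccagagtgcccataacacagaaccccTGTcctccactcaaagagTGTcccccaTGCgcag
The hinge exon measured 48 bases in Ighg3, 39 in Ighg1, 66 in Ighg2b and 63 in Ighg2c, with 1, 4, 4 and 3 cysteine codons in that order of genes.

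The libraries held 18738283 to 27003585 counts. CPM are read counts scaled to the library size, for single genes with edgeR's TMM factors over the 4 libraries of a comparison unless stated otherwise. Marker sums and the likeness values at the end use TMM factors over all 10 libraries. The sizes of marker sums and of single genes are therefore on different scales. Irf4 itself stood at 82.6 and 99.8 CPM in flox/- plasma cells, against 114 and 53.8 CPM in flox/+ plasma cells, so that the genotype of the splenic libraries rests on their labels. In the libraries labelled MPC-11 it stood at 276 and 146 CPM under the guide versus 467 and 496 CPM under the empty vector (log2 fold change -1.19 ± 0.37, SE; edgeR adjusted p = 0.592). The 10 plasma cell markers, Jchain and Xbp1 among them, had a sum of 36707 and 33990 CPM with flox/- versus 79638 and 99256 CPM with flox/+, without overlap, against 432 CPM in follicular B cells. Jchain made up most of the splenic sums, at 2.49% and 2.69% of all counts in flox/- libraries and 3.42% and 3.81% in flox/+ libraries. Irf4, another of the 10, overlapped between the genotypes. The heavy chain genes given below differed between the genotypes in both directions, and the part of plasma cell marker content in these differences was not tested. The 12 markers of follicular and naive B cells reached a sum of 555 and 927 CPM in flox/- libraries and of 292 and 366 CPM in flox/+ libraries, against 6190 CPM in follicular B cells. Marker sums of macrophages and T cells, and those of NK and erythroid cells, were also higher in the flox/- libraries, without overlap, whereas those of germinal centre B cells and neutrophils overlapped. The 10 macrophage markers summed to 7282 and 615 CPM in flox/- cells versus 497 and 185 CPM in flox/+ cells, and the 8 T cell markers to 172 and 444 CPM in flox/- cells versus 15.2 and 30.0 CPM in flox/+ cells. The 7 germinal centre B cell markers summed to 143 and 223 CPM in flox/- cells versus 146 and 291 CPM in flox/+ cells, and the 6 neutrophil markers to at most 0.550 CPM in the 4 splenic libraries. The 4 libraries labelled MPC-11 went against what that line is known for. MPC-11 is described as a line of BALB/c origin that makes IgG2b with kappa light chains, whereas these libraries held almost only Igha and lambda transcripts, as given below. They are called the libraries labelled MPC-11 for that reason.

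Splenic plasma cells of the 2 genotypes held different mixtures of classes, with most of the gap in Ighm and Ighg2c. Ighm, the heavy chain of IgM, took 52.7% and 47.8% of the counts of the 7 genes in flox/- libraries and 17.5% and 16.4% in the flox/+ libraries. Ighg2c, an IgG2 gene of C57BL/6 mice, took 15.0% and 21.2% in flox/- cells versus 43.1% and 38.8% in flox/+ cells. Ighg2b took 7.59% and 10.98% in flox/- cells versus 20.3% and 13.9% in flox/+ cells. The genotypes did not overlap in these shares, with Ighm higher and both IgG genes lower in flox/- cells. Igha, the heavy chain of IgA, overlapped, at 23.0% and 19.4% in flox/- cells versus 17.6% and 30.1% in flox/+ cells.

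Summed by class, IgM and IgD together made up 50.3% ± 3.41 (SD, n = 2) of the heavy chain constant counts in flox/- cells and 17.0% ± 0.727 in flox/+ cells, a difference of 33.3 percentage points. The 4 IgG genes made up 28.5% ± 5.97 in flox/- cells and 59.2% ± 8.12 in flox/+ cells. Both differences reached the smallest value that an exact two-sided permutation test of 2 against 2 libraries can give, p = 0.333, so the design cannot pass a threshold of 0.05. The shares are parts of the same total, so the 2 differences are not independent of each other. The IgA share was 21.2% ± 2.56 in flox/- cells and 23.8% ± 8.85 in flox/+ cells (exact permutation p = 1). Nothing in the labels says whether libraries of a group came from separate animals or cultures, so all p-values measure only the spread between these samples. In bulk RNA a larger number of cells of a class and more RNA per cell of that class cannot be told apart.

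**Figure D1:**
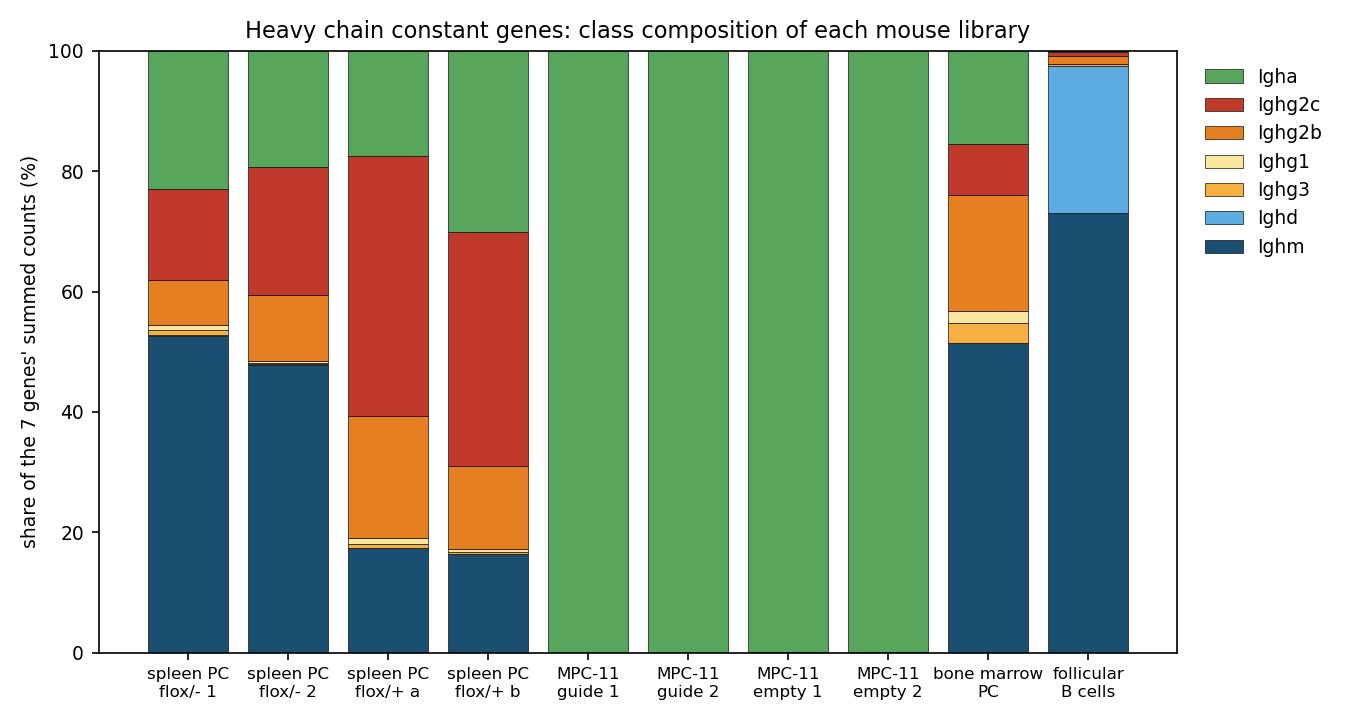
Share of each of the 7 heavy chain constant genes in their summed counts (%, vertical axis), 1 stacked bar per mouse library. Ighm (dark blue) fills 52.7% and 47.8% of the flox/- bars and 17.5% and 16.4% of the flox/+ bars, Igha (green) fills nearly all of the bars labelled MPC-11, and Ighd (light blue) is visible only in follicular B cells.

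Counts grow with the length of a transcript, so the order of genes within a library was also taken per kb. Per kb of secreted coding sequence, Ighm held 45.4% and 40.6% of the summed level in flox/- libraries and 13.6% and 12.8% in flox/+ libraries. On the same scale Ighg2c held 17.5% and 24.5% in flox/- cells, against 45.4% and 40.9% in flox/+ cells. Ighm was thus the highest of the 7 genes per kb in both flox/- libraries and Ighg2c the highest in both flox/+ libraries. Over the full annotated exon length the same genes led, with Ighm at 54.4% and 47.9% in flox/- libraries and Ighg2c at 57.5% and 53.5% in flox/+ libraries.

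As a part of all counts, Ighm reached 13.03% and 11.1% in flox/- libraries and 5.0% and 4.05% in flox/+ libraries. The follicular and naive B cell marker sums given above were higher in flox/- cells as well, whereas plasma cell marker sums were lower. The part of either was not tested. Ighg2c stood at 3.71% and 4.93% of counts in flox/- cells versus 12.3% and 9.57% in flox/+ cells. Ighg2b stood at 1.88% and 2.55% in flox/- cells versus 5.82% and 3.42% in flox/+ cells. The sum of all 7 genes was close in both genotypes. It took 24.7% and 23.2% of all counts in flox/- cells versus 28.6% and 24.6% in flox/+ cells, and the ranges overlapped (log2 ratio -0.15; exact permutation p = 0.667).

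Relative to transcripts that are not immunoglobulin the sum did not overlap between genotypes. For every 100 counts outside the immunoglobulin genes there were 56.7 and 49.2 counts of the 7 genes in flox/- libraries and 103 and 92.6 in flox/+ libraries (log2 ratio -0.89; exact permutation p = 0.333). All immunoglobulin genes together took 56.3% and 52.8% of counts in flox/- cells versus 72.2% and 73.4% in flox/+ cells. Light chain constant genes made up 17.6% and 15.99% of counts in flox/- cells, against 23.0% and 26.6% in flox/+ cells. The ratio of heavy to light constant counts was 1.41 and 1.45 in flox/- libraries and 1.24 and 0.928 in flox/+ libraries.

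**Figure D2:**
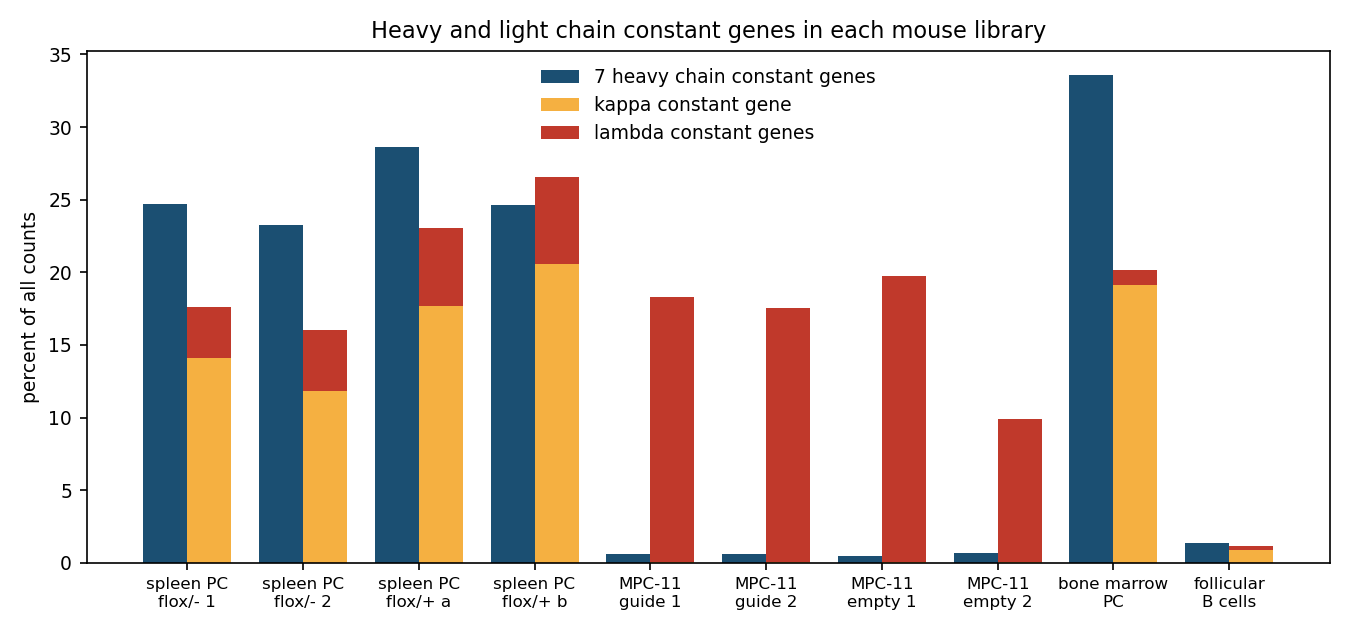
Percent of all counts (vertical axis, linear from 0) taken by the 7 heavy chain constant genes (dark blue) and by the kappa (orange) and lambda (red) constant genes, for each mouse library. Heavy chain bars stand above light chain bars in both flox/- libraries, at 24.7% and 23.2% against 17.6% and 15.99%, while the libraries labelled MPC-11 have 0.499% to 0.645% heavy and 9.90% to 19.7% light chain counts.

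The test across all genes gave no call for any member. The edgeR quasi-likelihood test with Benjamini-Hochberg adjustment called 0 of the 7 genes at an adjusted p under 0.05, and 0% of the 11887 genes tested. At an unadjusted p under 0.05, 1 member was higher and 2 were lower in flox/- cells, beside 8.63% of all genes higher and 3.85% lower. DESeq2, run as an alternative, called 1 member higher (Ighd) and 2 lower (Ighg2b and Ighg2c), beside 3.71% of all genes higher and 1.73% lower. In TMM-scaled CPM the genotypes did not overlap for 6 of the 7, with 2 higher and 4 lower in flox/- cells, beside 25.7% of all genes higher and 18.3% lower. In percent of counts and in shares of the 7 genes, 2 were higher, 2 were lower and 3 overlapped. The part of all genes without overlap was not computed on these scales, so nothing is read from this count. The percentages for TMM-scaled CPM do not carry over, since with libraries scaled to size alone the median of all genes was 0.98. The median log2 fold change was -1.17 over the 7 members and 0.09 over all genes tested.

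Ighd, which naive B cells make beside Ighm, had the largest fold difference of the 7. It stood at 39.4 and 66.1 CPM in flox/- libraries and 5.91 and 4.71 CPM in flox/+ libraries (log2 fold change 3.31 ± 0.44, SE, n = 2 each; edgeR adjusted p = 0.260; DESeq2 adjusted p = 9.46e-09). It remained a minor transcript, at 0.00495% and 0.00973% of counts in flox/- cells and 0.000455% and 0.000330% in flox/+ cells, against 0.329% in follicular B cells. Summed follicular and naive B cell markers moved with it, at 555 and 927 CPM in flox/- and 292 and 366 CPM in flox/+ libraries, and their part in the Ighd difference was not tested. There were 2632 and 1142 counts of Ighm for each count of Ighd in flox/- libraries and 10993 and 12292 in flox/+ libraries, against 3.00 in follicular B cells.

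Ighm stood at 103710 and 75434 CPM in flox/- cells versus 64938 and 57917 CPM in flox/+ cells, so that the groups did not overlap, but the log2 fold change of 0.54 ± 0.43 (SE) had an edgeR adjusted p = 0.741. Its size depended on the scaling. TMM raises the flox/+ libraries, whose other genes take fewer counts, and with libraries scaled to their size alone the median of all genes moved to 0.98 and Ighm to 1.42. Scaled to the sum of the 7 genes, an alternative added after the data were seen, Ighm stood at 1.57 ± 0.45 (SE; edgeR adjusted p = 0.104). Ighm was higher in flox/- cells under every scaling tried.

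Ighg2c and Ighg2b had the largest differences in the other direction. Ighg2c stood at 29534 and 33487 CPM in flox/- libraries and 160155 and 136704 CPM in flox/+ libraries (log2 fold change -2.24 ± 0.44, SE; edgeR adjusted p = 0.275; DESeq2 adjusted p = 4.49e-11). Ighg2b stood at 14939 and 17314 CPM in flox/- cells versus 75615 and 48923 CPM in flox/+ cells (-1.95 ± 0.45, SE; edgeR adjusted p = 0.275; DESeq2 adjusted p = 1.19e-05). With libraries scaled to size alone the log2 fold changes were -1.34 for Ighg2c and -1.06 for Ighg2b. The sign of both was the same under every setting. The ratio of Ighg2c to Ighg2b counts was 1.98 and 1.93 in flox/- cells and 2.12 and 2.79 in flox/+ cells.

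Igha, Ighg1 and Ighg3 were less clear. Igha stood at 45279 and 30556 CPM in flox/- libraries and 65272 and 105932 CPM in flox/+ libraries (log2 fold change -1.17 ± 0.49, SE; edgeR adjusted p = 0.424). Scaled to library size alone its log2 fold change was -0.29, and in percent of counts it overlapped, at 5.69% and 4.50% in flox/- cells versus 5.03% and 7.41% in flox/+ cells. Ighg1 and Ighg3 were minor classes in the spleen, at 0.0567% to 0.272% of counts in the 4 libraries. Ighg1 stood at 1556 and 406 CPM in flox/- cells versus 3533 and 1639 CPM in flox/+ cells (-1.40 ± 0.74, SE; edgeR adjusted p = 0.564), and its log2 fold change was -2.67 without flox/- library 1 and -0.74 without flox/- library 2. Ighg3 stood at 1768 and 385 CPM in flox/- cells versus 2143 and 1065 CPM in flox/+ cells (-0.58 ± 0.77, SE; edgeR adjusted p = 0.866). The sign of Ighg3 turned with the scaling, to 0.22 with libraries scaled to size alone, and it was -2.05 without flox/- library 1. Both genes were higher in CPM in flox/- library 1 than in flox/- library 2. Flox/- library 1 also had the higher macrophage and erythroid marker sums of that pair, at 7282 against 615 CPM and at 827 against 44.1 CPM. Its plasma cell marker sum was higher as well, at 36707 against 33990 CPM. Flox/- library 2 had the higher sums for follicular B cells (927 against 555 CPM) and germinal centre B cells (223 against 143 CPM). It also had those for T cells (444 against 172 CPM), NK cells (87.1 against 33.1 CPM) and neutrophils. The part of these cells in Ighg1 and Ighg3 was not tested.

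**Figure D3:**
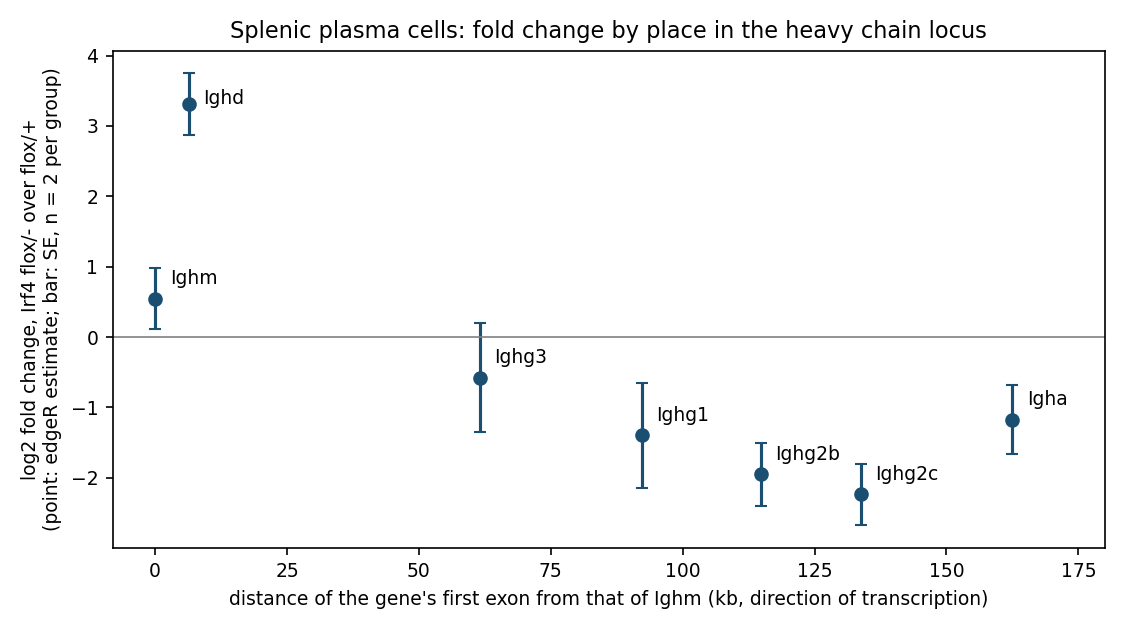
Log2 fold change of each gene in splenic plasma cells, flox/- over flox/+ (vertical axis; points are edgeR estimates, bars are SE, n = 2 libraries per group), against the distance of its first exon from that of Ighm in kb. Ighm and Ighd lie above 0 at 0.54 and 3.31, and the 5 genes further along the locus lie below 0, between -0.58 for Ighg3 and -2.24 for Ighg2c; with libraries scaled to size alone Ighg3 is at 0.22.

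Along the locus, the genes used before a class switch had positive log2 fold changes and those used after it had negative ones under TMM scaling. The values ran from 0.54 for Ighm and 3.31 for Ighd to -0.58 for Ighg3, -1.40 for Ighg1, -1.95 for Ighg2b, -2.24 for Ighg2c and -1.17 for Igha. With libraries scaled to size alone the split held for every gene but Ighg3, at 0.22. Ighe, the heavy chain of IgE, lies between Ighg2c and Igha and is not among the 7. It had 2755 and 4438 counts in flox/- libraries and 9232 and 1321 counts in flox/+ libraries, which overlap.

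In the libraries labelled MPC-11, Igha was the only heavy chain constant gene with more than 127 counts. It had 141593 and 111274 counts under the guide versus 96022 and 123110 counts under the empty vector, and made up at least 99.88% of the counts of the 7 genes in each library. Ighm had 5 and 7 counts under the guide versus 23 and 127 under the empty vector. Ighg2b, the class MPC-11 is known to make, had 0 and 1 counts under the guide versus 22 and 5 under the empty vector, and Ighg2c had 1 and 0 under the guide versus 32 and 11 under the empty vector. Ighd had 1 count in empty vector library 1 and 0 in the other 3 libraries. Ighg1 and Ighg3 had 0 counts in all 4, which allows a share of the 7 genes of up to 0.00212% and 0.00270% in guide libraries and 0.00312% and 0.00243% in empty vector libraries (3 counts per library). These limits cover counting error only.

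The test gave no call for Igha. It stood at 6525 and 6257 CPM under the guide versus 5464 and 5307 CPM under the empty vector (log2 fold change 0.25 ± 0.25, SE, n = 2 each; edgeR adjusted p = 1.00). These CPM did not overlap, beside 16.9% of all genes higher with the guide. In percent of all counts Igha did overlap, at 0.617% and 0.596% under the guide versus 0.499% and 0.644% under the empty vector. Only 3 of the 7 genes passed the filter on low counts. Ighm and Ighg2c passed it through the empty vector libraries alone, so their lower values with the guide carry no weight as a count. Ighm stood at 0.230 and 0.394 CPM under the guide versus 1.31 and 5.48 CPM under the empty vector (-3.42 ± 1.41, SE; edgeR adjusted p = 0.806). Ighg2c stood at 0.0461 and 0 CPM under the guide versus 1.82 and 0.474 CPM under the empty vector (edgeR adjusted p = 0.758). The edgeR test called 0 of the 3, beside 0.0187% of the 10670 genes tested, and DESeq2 called 0 of the 3, beside 1.03% of genes higher and 0.459% lower. At an unadjusted p under 0.05 edgeR had 3.49% of genes higher and 2.56% lower, and the members past it were Ighm and Ighg2c, from which nothing is read because of how they passed the filter.

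The heavy chain was a small part of the immunoglobulin transcripts in these libraries. The 7 genes took 0.617% and 0.596% of counts with the guide and 0.499% and 0.645% under the empty vector. Light chain constant genes took 18.3% and 17.5% under the guide versus 19.7% and 9.90% under the empty vector, which is 29.7 and 29.4 light chain counts per heavy chain count under the guide versus 39.5 and 15.3 under the empty vector. Nearly all of it was lambda, with kappa at 0.218% and 0.241% of light chain counts with the guide and 0.338% and 0.541% under the empty vector. Jchain, which joins the units of IgA and IgM polymers, took 1.63% and 1.35% of counts with the guide and 1.10% and 1.08% under the empty vector, without overlap (log2 fold change 0.58 ± 0.28, SE; edgeR adjusted p = 0.904). Annotated heavy chain variable genes had 26 and 34 counts with the guide and 32 and 6 under the empty vector, whereas they had 1026068 to 1586972 counts in the splenic plasma cell libraries.

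**Figure D4:**
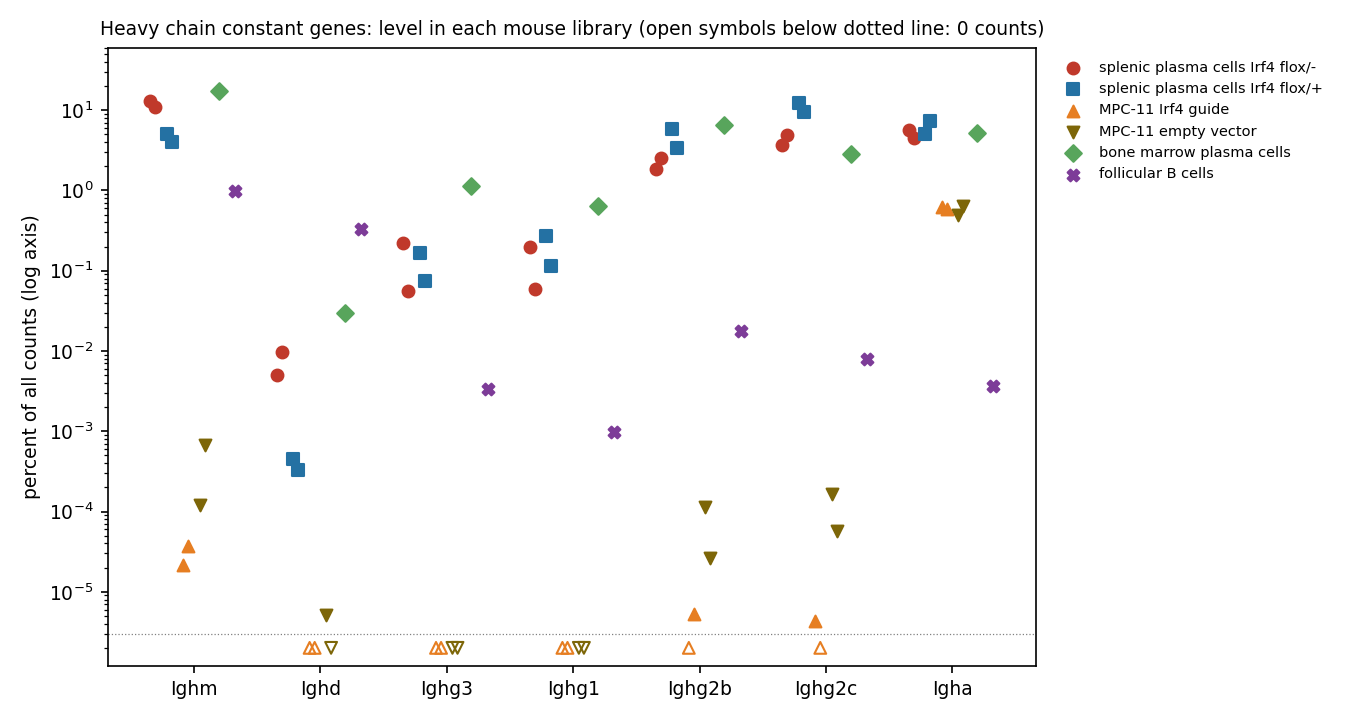
Percent of all counts (vertical axis, log scale) for each of the 7 genes in each mouse library; open symbols below the dotted line are libraries with 0 counts. Ighm is highest in bone marrow plasma cells at 17.3%, Ighd in follicular B cells at 0.329%, and only Igha exceeds 0.1% in the libraries labelled MPC-11.

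The difference of effect between the splenic cells and the line was tested for the 2 genes with counts in all 8 libraries of both comparisons. The log2 fold change of Ighm in splenic cells exceeded that in the line by 3.98 ± 1.10 (SE; edgeR adjusted p = 0.483). Most of that gap is the -3.42 of the line, which rests on 5 and 7 counts under the guide versus 23 and 127 under the empty vector. For Igha the difference was -1.42 ± 0.72 (SE; edgeR adjusted p = 0.893). Neither passed, and 0 of 12993 genes did.

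Bone marrow plasma cells were set beside follicular B cells without a test, since each was 1 library. At least 4-fold higher in bone marrow plasma cells were 6 of the 7 genes, beside 8.34% of 11677 genes, and Ighd was at least 4-fold lower, beside 49.6% of genes. The switched classes differed most. Igha stood at 51732 CPM (scaled to library size) in bone marrow plasma cells and 36.7 CPM in follicular B cells, a ratio of 1409.8 (95% exact counting interval 1314 to 1515). The ratios of Ighg1, Ighg2b, Ighg2c and Ighg3 were 667, 365, 355 and 335. Ighm stood at 172519 CPM in bone marrow plasma cells against 9864 CPM in follicular B cells, a ratio of 17.5. Ighd went the other way, at 299.6 CPM in bone marrow plasma cells and 3290 CPM in follicular B cells, a ratio of 0.0911. These ratios and the 4-fold counts hold for scaling to library size alone. Immunoglobulin genes took 69.8% of counts in bone marrow plasma cells and 3.24% in follicular B cells. With TMM factors over the 10 libraries, Ighd stood at 582 CPM in bone marrow plasma cells and 1763 CPM in follicular B cells. Ighm stood at 335233 and 5285 CPM on that scale, in the same order, so the size of the ratios depends on the scaling.

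By class, bone marrow plasma cells held 51.5% IgM and IgD, 33.1% IgG and 15.4% IgA, while follicular B cells held 97.5%, 2.23% and 0.272% of these classes in the same order. In follicular B cells Ighd was 24.4% of the 7 genes by counts and 36.0% per kb of secreted coding sequence, behind Ighm at 73.1% and 61.2%. All 5 switched genes had counts there, between 204 counts for Ighg1 and 3741 counts for Ighg2b. Summed plasma cell markers stood at 432 CPM in the follicular library, and their part in these counts was not tested. The leading IgG was Ighg2b in the bone marrow library and Ighg2c in the splenic libraries. Ighg2c counts were 0.440 times those of Ighg2b in bone marrow plasma cells, against 1.93 to 2.79 times in the 4 splenic plasma cell libraries, and Ighg3 reached 1.12% of counts in bone marrow, above the 0.0567% to 0.222% of the splenic libraries. These libraries differ in tissue, in the host, in Irf4 genotype and in treatment, which cannot be told apart, and the bone marrow library has no replicate.

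Each gene had its own order over the groups. Ighm as a percent of counts ran in the order bone marrow plasma cells (17.3%), flox/- (13.03% and 11.1%), flox/+ (5.0% and 4.05%), follicular B cells (0.986%) and the libraries labelled MPC-11 (at most 0.000665%). For Ighg2c the flox/- libraries (3.71% and 4.93%) lay below flox/+ (12.3% and 9.57%) and above bone marrow plasma cells (2.86%). For Ighg2b the flox/- libraries (1.88% and 2.55%) lay below flox/+ (5.82% and 3.42%), whose higher library was near bone marrow plasma cells (6.49%). Igha overlapped between the plasma cells taken from mice, at 5.17% in bone marrow, 5.69% and 4.50% in flox/- and 5.03% and 7.41% in flox/+ libraries. Ighg3 and Ighg1 were highest in bone marrow plasma cells, at 1.12% and 0.646%, and their splenic groups overlapped. Ighd alone was highest in follicular B cells.

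Genes that work with the heavy chain were read from lists. Of 5 measured light chain and J chain genes, 5 were lower in flox/- plasma cells (median log2 fold change -1.38), 4 of them at an unadjusted p under 0.05 (3.85% of all genes), with 0 called by edgeR and 3 called lower by DESeq2 (1.73% of all genes). The kappa gene Igkc stood at 112330 and 80155 CPM in flox/- libraries and 229921 and 294424 CPM in the flox/+ libraries (-1.45 ± 0.48, SE; edgeR adjusted p = 0.309). Of 22 genes of heavy chain assembly and secretion, 21 had lower values and 1 a higher one (median -0.77), with 0 called by edgeR and 8 called lower by DESeq2 (1.73% of all genes). Plasma cell marker sums, most of which is Jchain, were also lower in flox/- cells, and their part was not tested. Ssr4, a subunit of the complex at the translocation channel, stood at 238 and 189 CPM in flox/- cells versus 615 and 661 CPM in flox/+ cells (-1.58 ± 0.32, SE; edgeR adjusted p = 0.275; DESeq2 adjusted p = 8.87e-05). With libraries scaled to size alone the medians of these lists were -0.48 and 0.13, so the lower values of the assembly list are relative to the other genes.

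Genes that direct the choice of class had higher values in flox/- cells. Of 24 measured genes of that list 19 were higher and 5 lower (median 0.78), with 9 higher (8.63% of all genes) and 0 lower at an unadjusted p under 0.05, 2 called higher by DESeq2 (3.71% of all genes) and 0 called by edgeR. With libraries scaled to size alone the median of the list was 1.63 and that of all genes 0.98. These 2 were Il4ra and Il21r. Il4ra, part of the receptor for the cytokine of IgG1 and IgE switching, stood at 45.9 and 53.2 CPM in flox/- cells versus 2.57 and 4.87 CPM in flox/+ cells (3.73 ± 0.47, SE; edgeR adjusted p = 0.260; DESeq2 adjusted p = 6.72e-10). Il21r, the receptor for a helper T cell cytokine, stood at 66.6 and 123 CPM in flox/- cells versus 3.39 and 15.9 CPM in flox/+ cells (3.29 ± 0.81, SE; edgeR adjusted p = 0.275; DESeq2 adjusted p = 8.68e-04). Tgfbr2, a receptor subunit for the cytokine of IgA switching, had a log2 fold change (SE) of 1.09 ± 0.32 (edgeR adjusted p = 0.286). T cells and macrophages also express these receptors, and the T cell marker sums of 172 and 444 CPM in flox/- cells versus 15.2 and 30.0 CPM in flox/+ cells moved with them. Follicular and naive B cell marker sums moved with them as well, at 555 and 927 CPM in flox/- cells versus 292 and 366 CPM in flox/+ cells. The part of these cells was not tested.

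For the machinery of the switch no gene passed a test. Of 30 measured genes of class switch recombination 19 had higher and 11 lower values in flox/- cells (median 0.27, against 0.09 for all genes), and 0 passed an unadjusted p under 0.05 in edgeR or an adjusted p in DESeq2. In B cell receptor signalling, 5 of 9 genes were higher and 4 lower (median 0.13), with 0 called by either tool.

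Among 18 regulators of heavy chain transcription 15 had higher and 3 lower values in flox/- cells (median 0.39), with 2 called higher (3.71% of all genes) and 1 called lower (1.73%) by DESeq2 and 0 by edgeR. Xbp1, the plasma cell factor of the secretory programme, stood at 1233 and 1106 CPM in flox/- cells versus 2746 and 3677 CPM in flox/+ cells (-1.46 ± 0.35, SE; edgeR adjusted p = 0.275; DESeq2 adjusted p = 7.57e-04). Irf8, a factor of B cells and myeloid cells, stood at 178 and 157 CPM in flox/- cells versus 60.7 and 69.7 CPM in flox/+ cells (1.36 ± 0.30, SE; edgeR adjusted p = 0.275; DESeq2 adjusted p = 0.00231). Id3, an inhibitor of E proteins, stood at 12.2 and 30.7 CPM in flox/- cells versus 0.643 and 0 CPM in flox/+ cells (DESeq2 adjusted p = 5.11e-05). Follicular and naive B cell marker sums were also higher in flox/- cells, at 555 and 927 CPM versus 292 and 366 CPM in flox/+ cells. Macrophage marker sums were higher too, at 7282 and 615 CPM in flox/- cells versus 497 and 185 CPM in flox/+ cells. The part of these cells in this list was not tested.

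Genes of heavy chain RNA processing decide whether the secreted or the membrane end is made. Of 19, 13 had higher and 6 lower values in flox/- cells (median 0.12), with 0 called by edgeR and 1, Eaf2, called lower by DESeq2 (1.73% of all genes). Eaf2, a partner of the elongation factor Ell2, stood at 55.9 and 48.6 CPM in flox/- cells versus 97.4 and 145 CPM in flox/+ cells (-1.22 ± 0.34, SE; edgeR adjusted p = 0.283; DESeq2 adjusted p = 0.0411). Ell2, which favours the secretory poly(A) site of Ighm and the IgG genes in plasma cells, stood at 57.7 and 57.4 CPM in flox/- cells versus 126 and 86.2 CPM in flox/+ cells (-0.88 ± 0.32, SE; edgeR adjusted p = 0.355), and its log2 fold change was 0.00 with libraries scaled to size alone. Zfp318, which B cells need to make IgD from the joint Ighm and Ighd transcript, stood at 11.7 and 4.95 CPM in flox/- cells versus 0.936 and 0 CPM in flox/+ cells (4.16 ± 1.65, SE; edgeR adjusted p = 0.396; DESeq2 adjusted p = 0.0896), and neither tool called it.

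Receptors for the Fc part of antibodies had higher values in flox/- cells in 8 of 10 measured genes (median 1.66), with 2 called higher by DESeq2 (3.71% of all genes) and 0 by edgeR. With libraries scaled to size alone the median was 2.57, beside 0.98 for all genes. Fcgr1, an IgG receptor of macrophages, stood at 30.1 and 2.07 CPM in flox/- cells versus 0 and 0.106 CPM in flox/+ cells. Macrophage marker sums were also higher in flox/- cells, at 7282 and 615 CPM in flox/- cells versus 497 and 185 CPM in flox/+ cells, and their part in this list was not tested. Fcmr, the IgM receptor of B cells, stood at 130.2 and 153 CPM in flox/- cells versus 72.1 and 72.5 CPM in flox/+ cells (0.97 ± 0.29, SE; edgeR adjusted p = 0.288).

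In the libraries labelled MPC-11 edgeR called 0 genes of these lists. Of 22 genes of heavy chain assembly and secretion 19 had lower and 3 higher values with the guide (median -0.61), with 4 called lower by DESeq2 (0.459% of all genes). The chaperone Hspa5, which holds free heavy chains in the endoplasmic reticulum, stood at 1256 and 1219 CPM under the guide versus 2964 and 2204 CPM under the empty vector (-1.06 ± 0.29, SE; edgeR adjusted p = 0.528; DESeq2 adjusted p = 0.0179). Hsp90b1, a chaperone of the same compartment, stood at 996 and 944 CPM under the guide versus 1908 and 2456 CPM under the empty vector (-1.17 ± 0.28, SE; edgeR adjusted p = 0.498; DESeq2 adjusted p = 0.00491). Eaf2 stood at 120.2 and 137 CPM under the guide versus 413 and 233 CPM under the empty vector (-1.33 ± 0.36, SE; edgeR adjusted p = 0.528; DESeq2 adjusted p = 0.0264). Cd79b, the signalling partner of membrane immunoglobulin, stood at 913 and 926 CPM under the guide versus 438 and 274 CPM under the empty vector (1.37 ± 0.33, SE; edgeR adjusted p = 0.498; DESeq2 adjusted p = 0.00476). The medians were 0.14 for 5 light chain and J chain genes, 0.11 for 7 receptor signalling genes, -0.16 for 30 switching genes, 0.25 for 17 class directing genes, 0.19 for 15 transcription regulators, 0.10 for 19 RNA processing genes and 1.22 for 4 Fc receptors, against -0.02 for all genes. Only 4 of 11 Fc receptor genes were measured, with 0 called by either tool. Among them Fcgr3 stood at 0.599 and 1.07 CPM under the guide versus 0 and 0.0431 CPM under the empty vector, so nothing is read from that median.

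The genes most like each member over the 10 libraries were taken by Pearson's r of log2(CPM + 1) among 7751 genes outside the immunoglobulin loci. The 4 libraries labelled MPC-11 form a cluster of their own at the low end of most members, so these r values describe mainly that gap and come with no p. For Ighg2b and Ighg2c the most alike was Tmem154, with r = 0.996 and r = 0.992. Tmem154 was also the most alike for Ighg1 (0.991) and stood second for Ighg3 (0.985), after Pon2 (0.988). The closest for Ighm was H2-K1, a class I histocompatibility gene, at 0.993, followed by Tubb2a at 0.991 and Ppp3cc at 0.989. For Ighd the closest were Sptlc2 at 0.974 and the NF-kB subunits Relb and Nfkb2 at 0.954 each. For Igha, the only member with high counts in the libraries labelled MPC-11, Ly6c2 and Aldh3b1 had 0.986 each and Glipr1 had 0.974.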

How the data were processed

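The authors deposited raw, unnormalised counts of reads for 27179 mouse entries, of which 958 carry no symbol, take up to 0.306% of the counts in any library and were left out. Per the submitters' processing notes, the tools were limma, featureCounts and Subread 1.6.0 and the mouse build was mm10. RNA was reverse transcribed and made into libraries with a transposase-based kit, per the labels' protocols. The mouse log2 FPKM tables deposited by the authors list none of the 7 genes and were not used. The flox/+ count columns share a name and are called a and b.

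Percent of counts and shares among the 7 genes were computed from the counts, with exact (Clopper-Pearson) intervals at 95%. For a comparison, its 4 libraries alone entered edgeR 4.0.16, run in R 4.3.3 (TMM, filterByExpr with minimum count 10, quasi-likelihood F test, Benjamini-Hochberg over all genes, threshold 0.05), tested on simulated data beforehand. DESeq2 1.42.0 was the alternative, on the same genes. Single values per library had exact two-sided permutation tests. Libraries of a group differed by a chi-square of 112 to 266 per degree of freedom over all genes, far above counting error. Over the members it was 26981 for flox/-, 54153 for flox/+, 1.00 for the guide, at counting error over 2 genes, and 27.1 for the empty vector. All 7 members are named; from each list the genes called by edgeR, then those of lowest p up to 4, were eligible. Withheld genes are not reported here. The members and lists were chosen with earlier results of these data known.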

Additional observations from a re-analysis of the deposited data

How the results depend on the processing

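Of 175 recomputed values, 161 were classed as the same as in the main run. For fold changes this meant the same sign and side of the adjusted p threshold. For shares and summed ratios it meant the same sign alone, and for counts of called members an unchanged count. No member was under the threshold in the main edgeR fits, so staying on that side says little. In splenic plasma cells DESeq2 called 3 members against 0 by edgeR. Ighg3, at -0.58, turned to 0.22 with libraries scaled to size alone, to 0.38 scaled to the sum of the 7 genes (added after the data were seen), and with 1 library left out it ran from -2.05 to 0.14, positive without flox/- replicate 2 (0.14) or flox/+ replicate a (0.01). In shares of the 7 genes, with 1 library left out the differences ran from -0.195 to 0.459 points for Ighg3 (negative without flox/- replicate 1 or, at -0.00536, without flox/+ replicate b). They ran from -0.451 to 0.0827 for Ighg1 (positive without flox/- replicate 2 or, at 0.0586, flox/+ replicate a) and from -8.88 to 3.63 for Igha (positive without flox/+ replicate b); the causes were not tested. The log2 ratio of the summed share in the libraries labelled MPC-11 ran from -0.0887 to 0.28 when 1 library was left out. The flox/- minus flox/+ difference of the IgM and IgD share was 30.9 to 35.8 points without 1 library, 29.8 per kb of coding sequence and 35.0 per kb of exon. With the replicate block in the libraries labelled MPC-11, Igha kept 0.25 and 0 members were called; deviations of same-numbered libraries had r = -0.125, so the numbers were not taken as pairs, and crossed pairing also called 0 members and 1 gene. Without a filter these libraries had 27 genes higher and 5 lower, against 2 and 0. No paired analysis was possible in the spleen because the flox/+ columns carry no numbers, and FPKM alternatives were not run because these genes are not listed. With 2 libraries per group, small differences were not detectable.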
